A study of Mus musculus with 8 samples.

Results

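The myelin lipid synthesis enzymes are 8 genes, listed by name, out of 21883 protein-coding genes: Ugt8a, Fa2h, Gal3st1, Cers2, Elovl1, Elovl7, Aspa and Scd2. All 8 were found in the mouse annotation. Chd7 and Chd8 are related chromatin remodelers that use ATP to move nucleosomes. Their peaks were read at both ends of each gene (within 1 kb of either boundary), in the rest of the gene body, and in 50 kb of flank on both sides. The material was chromatin of O4-positive cells, sorted magnetically from the cortex and corpus callosum of wild-type mice at postnatal day 7 and called OPCs (oligodendrocyte precursor cells) by the labels. No treatment was given, and every group shared this source. The 8 libraries comprised chromatin precipitated with an antibody to Chd7 (2 replicates) or to Chd8 (1 library), mock precipitations with rabbit IgG (2) and unprecipitated input (3). The labels do not say whether the Chd7 replicates came from separate animals.

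Myelin is unusually rich in galactolipids. Ceramide with a very long acyl chain is built by fatty acid elongases and a ceramide synthase, is galactosylated to galactosylceramide, and part of that is sulfated to sulfatide. The acyl chains can carry a hydroxyl group. Cells of the lineage raise this output as they mature from precursors, and sulfatide is itself a lipid that the O4 antibody used for the sort recognises.

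The Chd8 list held 18350 peaks after removal of those that touched a mock peak, and the Chd7 lists of replicates 1 and 2 held 5218 and 6237. The mocks had 89 and 98 peaks and the inputs 109486, 178478 and 91628. Without read counts in the lists, sequencing depth is unknown, and the single Chd8 library gives no replicate error. Fold, the height of a peak over the caller's local background as the authors' files give it, is used to describe and rank peaks within a list, not to compare lists. Of the markers chosen for the cell type, Chd8 was at an end of 6 of 8 oligodendrocyte lineage genes, 3 of 6 neuron, 1 of 5 astrocyte, 1 of 5 microglia and 0 of 5 endothelial genes, beside 41.0% of all genes. Input 3 was at an end of 5, 5, 3, 0 and 3 genes of these lists, beside 45.2% of all genes. A peak is not a level of expression, so the purity of the sort cannot be read from it.

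The RefSeq table (GRCm38.p6) lists start sites for 6 of the 8 genes. The 250 bases before the start of each are shown because most of the remodeler peaks at an end of these genes fell on or beside them. Fa2h and Scd2 had no entry. Capitals mark the bases under the Chd8 peak, except for Cers2, where they mark the bases under the peak of Chd7 replicate 2; Aspa had no peak of any ChIP and is in lower case throughout. The sequences run 5′ to 3′ on the strand of the gene. Where 2 or more start sites are listed, the first along the gene is shown.
Ugt8a, chr3:125938653-125938902, minus strand: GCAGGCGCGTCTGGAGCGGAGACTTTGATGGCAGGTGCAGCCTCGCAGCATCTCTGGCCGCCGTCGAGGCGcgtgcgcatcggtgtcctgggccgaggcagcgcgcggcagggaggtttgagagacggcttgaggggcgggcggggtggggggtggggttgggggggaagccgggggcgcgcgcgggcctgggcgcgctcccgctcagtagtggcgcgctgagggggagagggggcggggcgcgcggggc
Gal3st1, chr11:3983386-3983635, plus strand: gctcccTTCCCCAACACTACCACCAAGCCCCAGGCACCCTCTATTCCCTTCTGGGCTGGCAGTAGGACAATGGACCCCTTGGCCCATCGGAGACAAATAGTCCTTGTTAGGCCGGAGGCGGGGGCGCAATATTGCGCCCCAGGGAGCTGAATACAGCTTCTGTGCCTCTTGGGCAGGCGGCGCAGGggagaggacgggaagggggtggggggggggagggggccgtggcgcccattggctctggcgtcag
Cers2, chr3:95314940-95315189, plus strand: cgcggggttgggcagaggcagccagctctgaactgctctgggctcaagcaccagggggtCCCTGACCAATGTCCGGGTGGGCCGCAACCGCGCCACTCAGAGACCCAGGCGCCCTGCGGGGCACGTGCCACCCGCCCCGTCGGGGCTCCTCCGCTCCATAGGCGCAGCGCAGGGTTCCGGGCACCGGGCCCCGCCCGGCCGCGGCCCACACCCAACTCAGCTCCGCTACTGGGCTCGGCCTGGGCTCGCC
Elovl1, chr4:118427843-118428092, plus strand: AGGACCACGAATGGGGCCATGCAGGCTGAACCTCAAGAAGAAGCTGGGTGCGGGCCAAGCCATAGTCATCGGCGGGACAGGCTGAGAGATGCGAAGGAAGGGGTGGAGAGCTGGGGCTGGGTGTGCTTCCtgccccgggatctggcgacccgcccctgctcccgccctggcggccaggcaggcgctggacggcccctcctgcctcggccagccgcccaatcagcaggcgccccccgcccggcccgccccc
Elovl7, chr13:108214154-108214403, plus strand: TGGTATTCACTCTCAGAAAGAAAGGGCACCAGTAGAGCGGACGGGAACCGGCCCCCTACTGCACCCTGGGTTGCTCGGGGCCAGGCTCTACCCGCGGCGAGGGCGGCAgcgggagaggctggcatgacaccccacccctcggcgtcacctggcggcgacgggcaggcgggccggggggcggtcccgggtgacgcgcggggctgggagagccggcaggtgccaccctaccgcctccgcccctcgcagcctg
Aspa, chr11:73324638-73324887, minus strand: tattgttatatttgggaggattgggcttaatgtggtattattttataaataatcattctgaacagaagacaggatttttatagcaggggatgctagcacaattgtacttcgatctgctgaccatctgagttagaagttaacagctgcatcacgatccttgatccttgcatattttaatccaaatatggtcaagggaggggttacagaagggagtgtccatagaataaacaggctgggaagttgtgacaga

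Chd8 was present at an end of 7 of the 8 genes, and Aspa was the exception. That is 87.5% (95% exact binomial interval 47.3 to 99.7), beside 41.0% of all protein-coding genes. Chd7 replicate 2 had a peak at an end of 5 of 8 (62.5%, 24.5 to 91.5), beside 17.0% of all genes: Ugt8a, Gal3st1, Cers2, Elovl7 and Scd2. Chd7 replicate 1 had one at Ugt8a alone, 1 of 8, beside 10.4% of all genes. Each of these 5 also had Chd8 at an end, where 15.3% of all genes had Chd8 with Chd7 replicate 2 and 20.0% had Chd8 with either Chd7 library. The members share this class with many genes, and the count was read against that background without a test. The members were chosen by name with earlier results of these data known. The intervals therefore cover counting error only and do not test a difference from all genes.

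No member had a reproducible Chd7 region, that is, overlapping peaks of both replicates, at an end (0 of 8, upper limit 36.9% by the exact interval), beside 4.83% of all genes. Ugt8a had peaks of both Chd7 libraries at the same end, which 5.45% of all genes had at either end, but they lay 112 bp apart. The Chd7 results at these ends therefore come from 1 library for each of the other 4 genes, and without replicate 2 the count of members falls from 5 to 1.

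Neither mock had a peak anywhere in the 8 windows (0 of 8). Over all genes, mocks 1 and 2 were at an end of 0.0183% and 0.0137%, in the body of 0.0960% and 0.0914% and in the flanks of 0.219% and 0.215%, so an empty window is the usual state there. The inputs did have peaks there: input 1 had a peak at an end of 2 of 8 members (21.9% of all genes), input 2 of 4 (28.4%) and input 3 of 5 (45.2%). The Chd8 end peaks of Gal3st1, Cers2, Elovl1 and Elovl7 touched no peak of any input, 4 of 8 members beside 13.1% of all genes. Those of Ugt8a touched inputs 2 and 3, that of Fa2h inputs 1 and 2, and that of Scd2 input 3. The part of input chromatin in the peaks of these 3 genes was not tested. With peaks of any input removed, 5.66% of all genes kept a Chd7 peak at an end, as did 2 of the 8 members, Cers2 and Elovl7, and with those of the matching input removed 15.0% and 5 of 8. The titles and the track names in the files differ on which of inputs 2 and 3 matches, and with these exchanged, an alternative chosen after the data were seen, the last count was 3 of 8. No member had a Chd7 end peak with a −log10 q of at least 5 (0.146%), and 2, Ugt8a and Cers2, had one of fold at least 4 (11.3%). The lowest fold of the replicate 1 list was 4.15, so the fold cut removed none of its peaks. It removed most of replicate 2, where a fold of 3.87 was higher than 88.4% of the list.

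**Figure D1:**
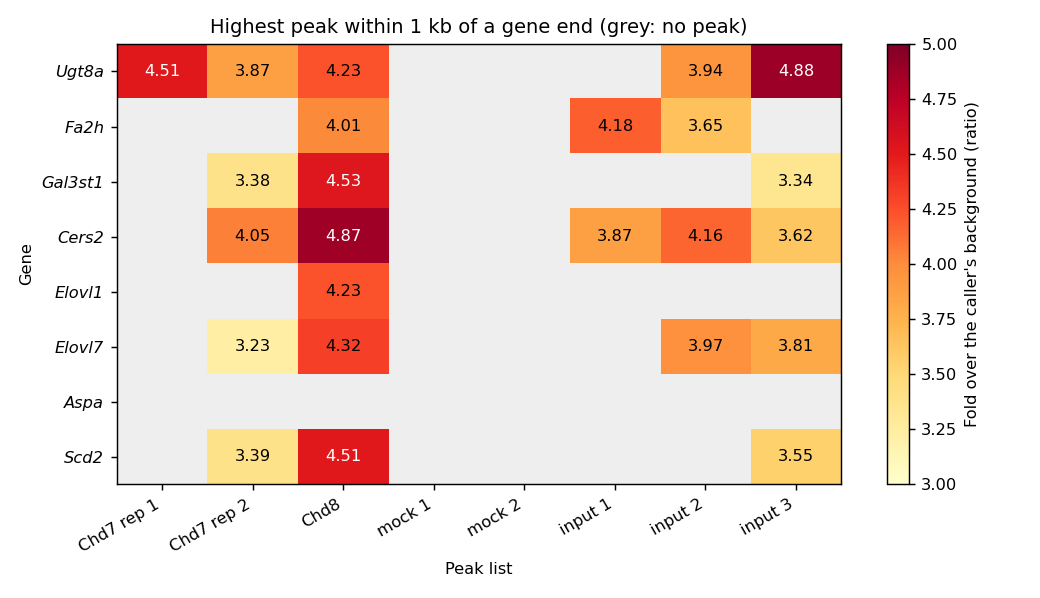
Highest fold (ratio over the caller's local background) of a peak within 1 kb of either end of each of the 8 genes (rows) in each of the 8 peak lists (columns); grey cells have no peak. The Chd8 column is filled for 7 genes, from 4.01 at Fa2h to 4.87 at Cers2, both mock columns are empty, and folds of different lists are not on 1 scale.

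**Figure D2:**
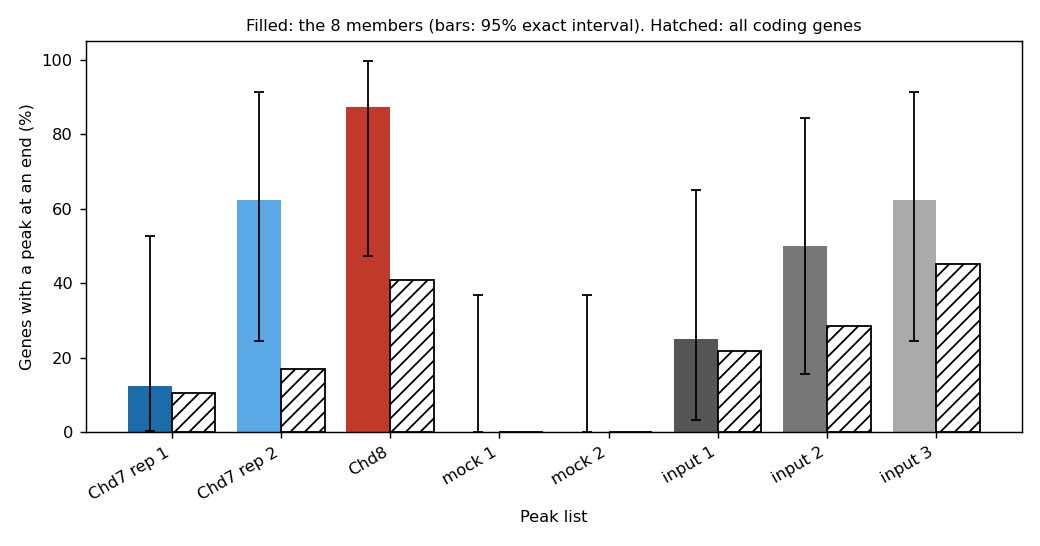
Percentage of genes with a peak at an end in each list, for the 8 members (filled bars, with 95% exact binomial intervals over genes) and for all 21883 protein-coding genes (hatched bars). The members stand at 87.5% for Chd8 and 62.5% for Chd7 replicate 2, beside 41.0% and 17.0% of all genes, and the intervals of 8 genes are wide. The genes were chosen by name with earlier results known, so the intervals do not test a difference.

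The galactolipid enzymes come first. Ugt8a encodes the ceramide galactosyltransferase that makes galactosylceramide, and spans 73.4 kb of chromosome 3 from 125865272 to 125938682, read from the upper boundary. Its start was flanked by a pair of Chd8 peaks, one with its midpoint at -330 bp from the listed start site (chr3:125938832-125939133, fold 4.23) and the other at 325 bp downstream (chr3:125938166-125938489, fold 3.89). The Chd7 replicate 1 peak (chr3:125938498-125938907, fold 4.51) covered the start site itself, in the space between them. It overlapped the upstream Chd8 peak by 76 bp and ended 8 bp short of the downstream one. The Chd7 replicate 2 peak (chr3:125939020-125939132, fold 3.87, higher than 88.4% of its list) overlapped the same upstream Chd8 peak by 113 bp. The upstream Chd8 peak was thus touched by both Chd7 libraries, although their own peaks did not meet. A peak of input 3 (chr3:125938952-125939060, fold 4.88, higher than 99% of its list) lay inside this Chd8 peak, and both Chd7 end peaks touched input 3 as well.

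Ugt8a also had the only member body peak shared by both remodelers. This Chd8 peak lay 67.9 kb downstream of the start site, near the far end of the gene (chr3:125870413-125871149), with a fold of 7.41, and 2.62% of the Chd8 list reached that fold. A Chd7 replicate 1 peak of 229 bp lay wholly inside it, with a fold of 4.15, the lowest value in that list. No input had a peak there. A further Chd8 peak stood 9.15 kb beyond the far boundary (fold 4.50), without Chd7 or input.

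Gal3st1 encodes the cerebroside sulfotransferase that turns galactosylceramide into sulfatide, and lies on chromosome 11 from 3983636 to 3999328. One Chd8 peak of 180 bp (chr11:3983392-3983571, fold 4.53) had its midpoint at -155 bp from the first start site, and it fell entirely within the 250 bases printed above. The Chd7 replicate 2 peak assigned to the same end (fold 3.38) lay 705 bp from it and 950 bp from the boundary, just inside the window, and touched a peak of input 3 (fold 3.99). The pair thus shares an end without sharing a site. A further Chd8 peak 8.99 kb upstream (chr11:3974045-3974643, fold 4.07), within the neighbouring gene Pes1, contained a Chd7 replicate 1 peak of fold 5.39, and both touched input 3.

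Fa2h encodes the fatty acid hydroxylase that puts the hydroxyl group on the acyl chains of galactolipids, and lies on chromosome 8 from 111345138 to 111393821. Its Chd8 peak covered the upper boundary (chr8:111393806-111394040, fold 4.01), with peaks of inputs 1 (fold 4.18) and 2 (fold 3.65) over the same place. Neither Chd7 library had a peak at an end or in the body. The highest Chd8 fold of all 8 windows was inside this gene, 8.52 kb from the lower boundary (chr8:111353662-111353812, fold 7.56, reached by 2.29% of the list). That peak was 151 bp wide and lay wholly inside a peak of input 3 (697 bp, fold 3.55).

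The enzymes of the acyl chain form the next group. Cers2 encodes the ceramide synthase that prefers very long acyl chains, and lies on chromosome 3 from 95314771 to 95323599. The Chd7 replicate 2 peak (chr3:95314999-95315419, fold 4.05) spanned its first listed start site and was higher than 92.9% of that list. The Chd8 peak (chr3:95315596-95315963, fold 4.87) followed 176 bp further into the gene. Neither touched an input peak, although all 3 inputs had a peak of their own upstream (that of input 1 from 95314143 to 95314282), which touched no ChIP peak. Both remodeler peaks also lie within 1 kb of an end of Anxa9 and of LOC115489748, whose loci overlap this start, so these peaks cannot be given to Cers2 alone. Inside Cers2 a weak Chd8 peak (fold 3.81) touched inputs 2 and 3.

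Elovl1, an elongase of saturated very long fatty acids on chromosome 4 (118426874 to 118432953), had a peak of each remodeler beside its first listed start site, neither of which covered it. The Chd8 peak (chr4:118427501-118427972, fold 4.23) lay upstream, with its midpoint at -357 bp, and touched no input peak. A Chd7 replicate 2 peak (chr4:118428274-118428377, fold 3.18) lay downstream, with its midpoint 232 bp after the site, wholly inside a peak of input 2 (fold 3.59). Because it stood 1.40 kb from the gene boundary, it fell outside the end window and was counted in the body. Against the listed start sites in place of gene boundaries, a choice made after the data were seen, Chd8 was within 1 kb at 5 of the 6 listed members (43.6% of 17485 genes) and Chd7 replicate 2 at the same 5 (18.0%), Elovl1 with its peak over input 2 included.

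Elovl7, another elongase of long acyl chains, spans 72.8 kb of chromosome 13 (108214326 to 108287109). The Chd8 peak (chr13:108214130-108214261, fold 4.32) and the Chd7 replicate 2 peak (chr13:108213992-108214220, fold 3.23) overlapped by 91 bp just upstream of the start site. No input peak touched either, and the nearest, of input 3, began downstream at 108214654. The gene body had no ChIP peak. Past the far boundary a second shared site stood alone: a Chd8 peak 14.3 kb away (chr13:108301428-108301883, fold 4.94) contained a Chd7 replicate 1 peak of fold 5.29, with no input peak and no end of a coding gene within 1 kb. A Chd8 peak of fold 4.19 lay 839 bp before that Chd7 peak.

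Scd2 encodes a stearoyl-CoA desaturase of brain, which introduces a double bond into saturated fatty acids, and lies on chromosome 19 from 44293676 to 44306864. It had the most Chd8 peaks of the 8 windows, 7. The widest, of 1380 bp, covered the lower boundary (chr19:44293646-44295025, fold 4.51), and all 215 bp of a Chd7 replicate 2 peak (chr19:44293667-44293881, fold 3.39) lay within it. Both touched input 3. A second place where Chd8 and Chd7 replicate 2 overlapped, by 192 bp, stood 9.06 kb outside that boundary (Chd8 fold 4.23, Chd7 fold 3.48), again over input 3. The gene body held 2 weak Chd8 peaks (folds 3.86 and 3.81) without input or Chd7.

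Aspa encodes aspartoacylase, which frees acetate from N-acetylaspartate for lipid synthesis in oligodendrocytes, and lies on chromosome 11 from 73304987 to 73326876. No Chd7 or Chd8 peak was listed at its ends, in its body or in 50 kb on either side, a state shared with 25.6% of all genes. The window was not empty of peaks, since input 1 had 6, input 2 had 8 and input 3 had 3 in it, none of them at an end. A lower occupancy under the authors' calling threshold cannot be told apart from no occupancy.

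**Figure D3:**
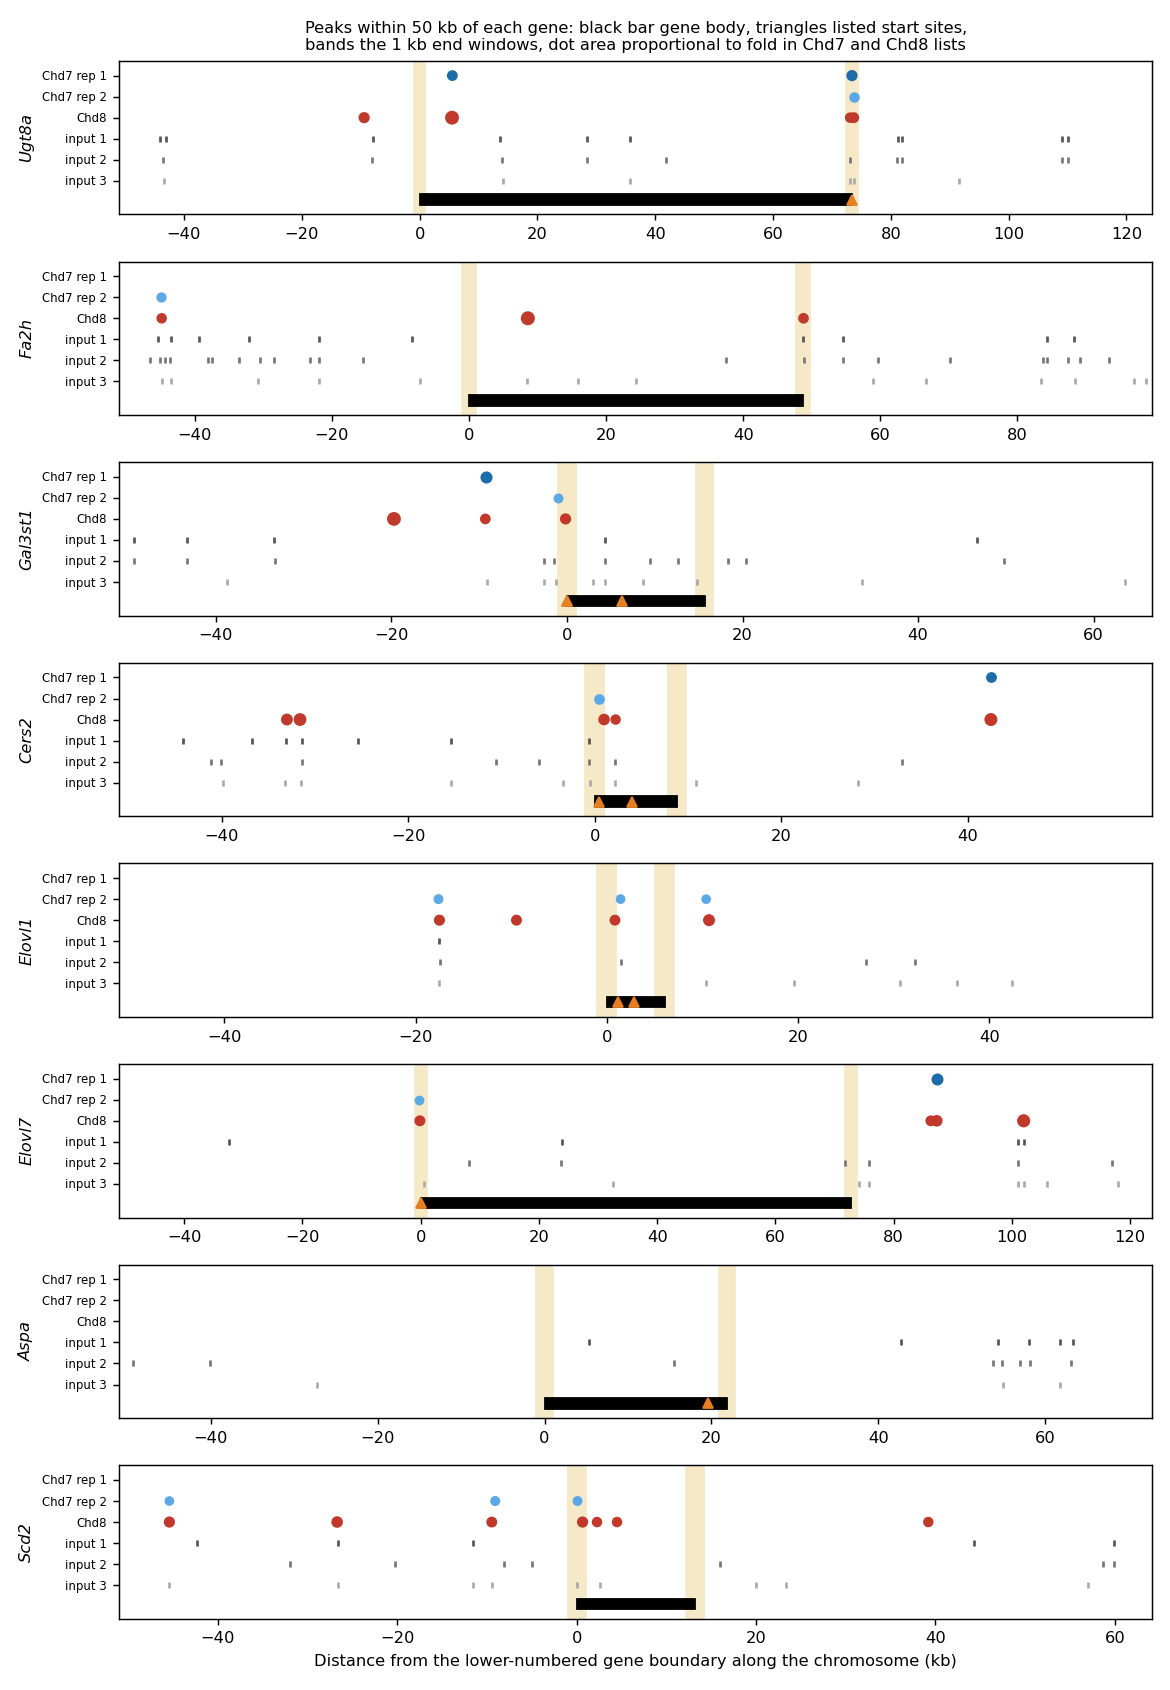
Peaks of the Chd7, Chd8 and input lists around each gene, by distance of the peak midpoint from the lower-numbered gene boundary (kb); the black bar is the gene body, triangles are start sites listed by RefSeq, shaded bands are the end windows of 1 kb, dot area is proportional to fold in the Chd7 and Chd8 lists, and input peaks are ticks of 1 size. Every gene but Aspa has a Chd8 peak that reaches an end band, although the midpoint of the Cers2 peak, at 1.01 kb, is drawn just outside it. The strong body peaks of Ugt8a (7.41) and Fa2h (7.56, inside a peak of input 3) stand apart from the ends, and mock lists had no peak in any window.

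The Chd8 peaks at the ends were not high for their list. Over the 7 genes the highest end peak had a median fold of 4.32 (4.01 to 4.87), beside 4.85 over all 8963 genes with Chd8 at an end. No Chd8 end peak had a −log10 q of at least 5, which 8.28% of all genes reached at an end, and all 7 had a fold of at least 4, as 37.0% of all genes did. Peaks of a fold of at least 7 made up 3 of the 30 Chd8 peaks in the windows and 3.66% of the whole list. The 3 were the body peaks of Ugt8a and Fa2h and a peak at an end of Pes1, the neighbour of Gal3st1 (fold 7.35). Of these, the Fa2h peak lay inside a peak of input 3.

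**Figure D4:**
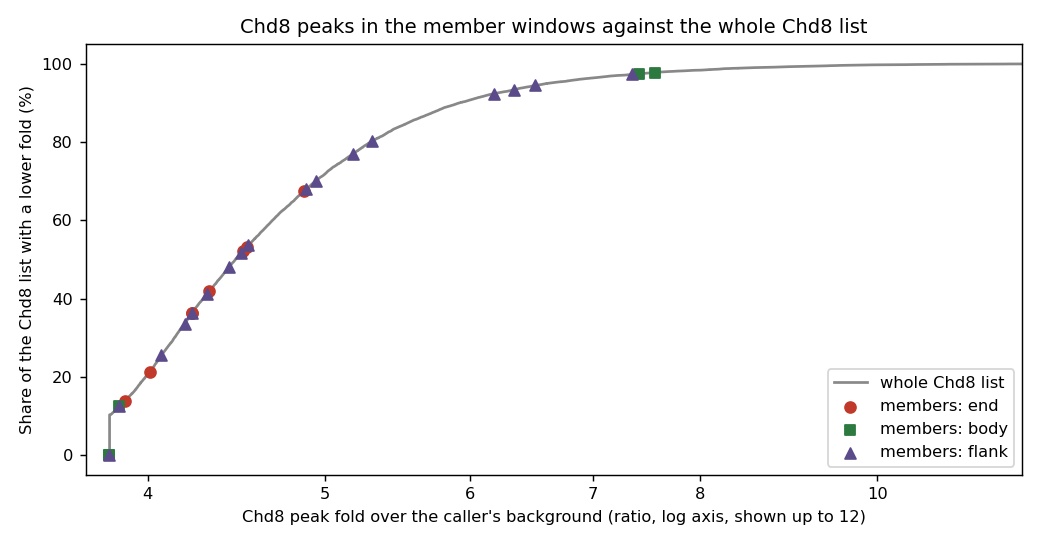
Fold of the 30 Chd8 peaks in the 8 windows (x axis, log scale, ratio over the caller's background) against the percentage of the whole Chd8 list with a lower fold (y axis); the grey line is the whole list and the symbols give the place of a peak. End peaks run from 3.89 to 4.87, while 2 of the body peaks stand above 97% of the list, that of Fa2h inside a peak of input 3.

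Chd8 lay in the body, outside the end windows, of 4 of 8 members (16.5% of all genes): Ugt8a, Fa2h, Cers2 and Scd2. Of these, 2, Ugt8a and Fa2h, reached a −log10 q of at least 5 (1.68%). Chd7 lay there in 2 (11.5%), Ugt8a in replicate 1 (1 of 8, 7.11% of all genes) and Elovl1 in replicate 2 (1 of 8, 7.16%). Inputs 1, 2 and 3 lay in the body of 4, 7 and 6 members, beside 37.4%, 48.1% and 46.7% of all genes. In the flanks Chd8 was present for 7 of 8 (58.6%) and either Chd7 library for 6 of 8 (43.9%), 3 with replicate 1 (27.0%) and 3 with replicate 2 (35.0%). Each input was in the flanks of all 8 (89.0%, 94.6% and 90.1% of all genes). The Chd8 total per window ran from 0 for Aspa to 7 for Scd2 with a median of 4, beside a median of 2 over all genes, whose windows differ in length with the gene.

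Of the 17 Chd8 peaks in the flanks, 10 lay at an end of another coding gene. Those named here, after their values were seen, were Rfwd3 beside Fa2h, Pes1 beside Gal3st1, Prune1, Mindy1 and Setdb1 beside Cers2, Cdc20 beside Elovl1, Depdc1b beside Elovl7, and Pkd2l1 and Scd4 beside Scd2. Away from every coding gene end there were 12 of the 30 peaks (40%, 22.7 to 59.4), beside 52.9% of the whole Chd8 list. Of these 12, 4 touched a Chd7 peak (33.3%, beside 30.1% of such peaks in the whole list) and 5 an input peak (41.7%, beside 26.6%). The 2 that touched Chd7 and no input were the body peak of Ugt8a and the site beyond Elovl7.

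Of the 30 Chd8 peaks, 12 touched a peak of either Chd7 library (40%, 22.7 to 59.4), beside 35.4% of the whole list. The count depended on the setting: it was 4 of 30 with a reciprocal overlap of 50% (13.3%, beside 16.6% of the list), 5 of 24 with a fold of at least 4 (20.8%, beside 27.6%) and 4 of 15 with peaks of the matching input removed (26.7%, beside 24.9%). Of the Chd7 lists, the fold cut reduced that of replicate 2 alone. From the Chd7 side, all 5 replicate 1 peaks in the windows touched Chd8 (78.8% of that whole list) and so did 8 of 11 replicate 2 peaks (62.2%). The 3 replicate 2 peaks that did not were those at the starts of Gal3st1, Cers2 and Elovl1, which lay 705, 176 and 301 bp from the nearest Chd8 peak. Input peaks touched 2 of the 5 replicate 1 peaks (38.8% of that whole list), 9 of the 11 replicate 2 peaks (62.2%) and 16 of the 30 Chd8 peaks (53.3%, beside 46.3%).

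The promoter of Aspa, the only listed member without Chd8 at an end, differed in base composition from those of the other 5. In the 250 bases before the first listed start site, GC made up 76.8% in Ugt8a, 74.8% in Cers2, 73.6% in Elovl7, 72.0% in Elovl1 and 65.6% in Gal3st1, but 38.8% in Aspa. The median over all 21254 promoters of coding genes was 55.6%. With genes split by the highest promoter GC of each into 5 classes of about equal size, Chd8 was at an end of 9.54% of genes in the lowest class, which holds Aspa. It was at an end of 61.6% in the fourth class, which holds Gal3st1, and of 56.4% in the highest, which holds the other 4. Input 3 moved with GC in the same direction, at 10.2%, 67.2% and 64.9% of genes in these classes, and its part in the difference was not tested. The share of genes with Chd8 in the classes that hold these 5 members is thus higher than the 41.0% of all genes.

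**Figure D5:**
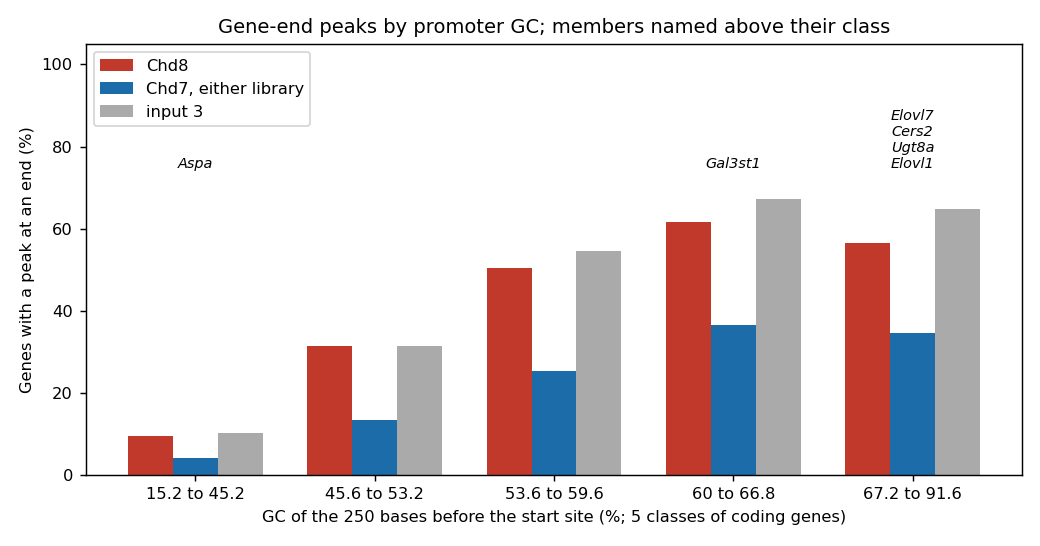
Percentage of protein-coding genes with a peak of Chd8, of either Chd7 library or of input 3 at an end (y axis), in 5 classes of promoter GC (x axis, percent of the 250 bases before the start site); names above the bars are the members in each class. Chd8 runs from 9.54% in the lowest class to 61.6% in the fourth, and input 3 runs alongside from 10.2% to 67.2%.

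Short motifs were counted on both strands of the same 250 bases of the first listed promoter, overlaps allowed. The GC box GGGCGG occurred 3 times in Ugt8a, 2 times in Cers2, 5 times in Elovl1 and 3 times in Elovl7, not in Gal3st1 or Aspa, and in 42.6% of all promoters. The E-box CANNTG, the kind of site that Olig factors bind, occurred 3 times in Aspa, 2 times in Elovl7 and 1 time each in Ugt8a and Cers2, and in 62.8% of all promoters. The SOX motifs ACAAAG or ACAATG occurred 1 time, in Gal3st1 (22.8% of all promoters), where the match lies under the Chd8 peak. CCAAT occurred in Gal3st1, Cers2, Elovl1 and Aspa (35.4%), and the consensus sterol regulatory element in none of the 6 (0.0518%). A match describes these letters only.

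The rest of the pathway was followed in 55 further genes in 5 lists. Chd8 was at an end of 34 of them (61.8%, beside 41.0% of all genes) and either Chd7 library of 20 (36.4%, beside 21.9%), and 6 had a reproducible Chd7 region (10.9%, beside 4.83%). Input 3 was at an end of 38 (69.1%, beside 45.2%). End peaks of Chd8 that touched no input were found at 5 of the 55 (9.09%), beside 4 of the 8 members (50%) and 13.1% of all genes.

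Sphingolipid synthesis had Chd8 at 12 of 16 genes (75%, beside 41.0% of all genes) and Chd7 of either library at 10 (62.5%, beside 21.9%), while input 3 was at 13 (81.2%, beside 45.2%). The highest Chd8 end peaks with Chd7 were at Cers4 (fold 6.13), another ceramide synthase, Sptlc2 (6.00), a subunit of the serine palmitoyltransferase that opens the pathway, Kdsr (5.44), which reduces its product, and Sgms1 (5.11), a sphingomyelin synthase. The highest Chd8 end peaks without Chd7 were at Cers5 (4.22) and Sptssb (3.90). Both Chd7 libraries were at an end of Sptlc2, and Chd7 replicate 2 alone at Cers4, Kdsr and Sgms1. Inputs 1, 2 and 3 were also at an end of Sptlc2, Kdsr and Cers5. Sptssb had inputs 1 and 3 there, Sgms1 had input 3 and Cers4 had no input. Ugcg, which glucosylates ceramide where Ugt8a galactosylates it, had no ChIP peak at an end.

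Fatty acid synthesis, elongation and desaturation had Chd8 at 12 of 20 genes (60%) and Chd7 at 6 (30%), with input 3 at 15 (75%), beside the same 41.0%, 21.9% and 45.2% of all genes. Hsd17b12 (Chd8 fold 6.77) and Tecr (4.74), partners of the elongases in the elongation cycle, Fasn (5.35), the fatty acid synthase, and Fads2 (4.55), a desaturase, had both remodelers. Hacd2 (8.12), the dehydratase of the cycle, and Elovl6 (4.90) had the highest Chd8 end peaks without Chd7. Hacd2 also had inputs 2 and 3 at an end, and Elovl6 had input 1. Among the genes named here with Chd7, Hsd17b12 and Fasn had peaks of both Chd7 libraries, and Tecr and Fads2 of replicate 2 alone. Fasn and Fads2 also had inputs 1, 2 and 3 at an end, Tecr had inputs 1 and 3, and Hsd17b12 had input 3.

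Ether lipid synthesis had Chd8 at 4 of 7 genes (57.1%, beside 41.0% of all genes), and input 3 also at 4. Gnpat (5.66) and Far1 (5.09), enzymes of the first steps toward plasmalogens, also had Chd7, and Tmem189 (5.42) and Pex5 (4.36) did not. Inputs 1, 2 and 3 were at an end of Gnpat and of Far1, input 3 of Tmem189 and input 1 of Pex5. Galactolipid turnover and transfer had Chd8 at 4 of 7 and input 3 at 4 as well. The Chd8 peak of Gm2a (4.17) came with both Chd7 libraries. Those of Psap (5.02), Galc (4.95), the galactosylceramidase that undoes the step of Ugt8a, and Sumf1 (4.91) were without Chd7. Gm2a had inputs 2 and 3 at an end, Psap inputs 1, 2 and 3, Galc input 3 and Sumf1 no input. Of 5 genes of acetate supply, 2 had Chd8 (40%) and 2 had input 3. Nat8l (4.97), which makes the substrate of Aspa, had Chd8 and Chd7 replicate 2, with input 2 also at an end. Acss2 (4.47) had Chd8 without Chd7, with inputs 1 and 3 also at an end.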

How the data were processed

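ChIP-seq peaks of 8 libraries were analysed: 2 Chd7 ChIPs, 1 Chd8 ChIP, 2 mocks and 3 inputs, grouped by their titles, with controls assigned as the labels describe them. The extraction notes name the O4 antibody for the precipitation where each sample's own label names anti-Chd7, anti-Chd8 or IgG, and the sample labels were used. Per the submitters' processing notes, Bowtie2, SAMtools, Picard and MACS were used on mm10, without a version, a setting or the control used for calling. Each deposited file is a broad peak list of 1 library. The deposited score in column 5 is 10 times the −log10 q to within 1 unit and was not used further. The authors' fold in column 7 is the ratio of a peak to the caller's local background. The −log10 p and −log10 q in columns 8 and 9 are the authors' values.

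ChIP peaks that touched a mock peak by at least 1 bp were removed, 65 of them from the Chd8 list. Genes were the 21883 protein-coding genes of the RefSeq table (GRCm38.p6, the same assembly as mm10) outside the mitochondrial genome. Its boundaries carry no strand, and start sites came from the promoter table. A peak at an end was not counted again in the body or flank. A Chd7 region was reproducible where peaks of both libraries overlapped by at least 1 bp. No test was run: counts of members stand beside the share of all genes, and intervals are 95% Clopper-Pearson intervals, which cover counting error over genes or peaks only. The classification was tested on simulated peaks (python 3.11.15, pandas 2.3.3, numpy 2.4.6, scipy 1.17.1).

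The members and lists were chosen with earlier results of these data known. Named were all 8 members, genes that share an end peak with one, and, of each pathway list, up to 4 genes with Chd7 and 2 without, by Chd8 fold; Ugcg, Sumf1 and flank neighbours were added after their values were seen. Alternatives were a −log10 q of at least 5, a fold of at least 4, mock or input peaks treated otherwise, other windows, midpoints, reciprocal overlap and each Chd7 library alone.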

Additional observations from a re-analysis of the deposited data

How the results depend on the processing

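Of 64 recomputed counts, 37 stayed within 1.5 times the reported one. The 37 include every setting of the reproducible Chd7 count, which was 0 throughout. Counts of shared peaks were compared without regard to the changing number of peaks. In the counts that use Chd7, a fold of at least 4 removed no peak of replicate 1 and most of replicate 2. Members with Chd8 at an end were 7, 0 with a −log10 q of at least 5 and 4 with peaks of any input removed (13.1% of all genes). Members with Chd7 at an end were 5, 0 at that −log10 q, 2 with a fold of at least 4 or with any input removed, 3 with matching inputs removed after inputs 2 and 3 were exchanged, and 1 to 5 without one or the other Chd7 library. The count of members with a reproducible Chd7 region, 0, could have risen only with mock-touching peaks kept or with ends of 5 kb, and was 0 in both. Members with Chd8 in the body were 4. At a −log10 q of at least 5 (1.68% of all genes) or a fold of at least 4 (13.4%) they were 2, Ugt8a and Fa2h. With the matching input (12.8%) or any input removed (12.1%) they were also 2, but Ugt8a and Scd2. Members with Chd8 in the flanks were 7 (58.6% of all genes), 3 at that −log10 q and 4 with a flank of 10 kb. With Chd7 in the flanks they were 6 (43.9%), 0 at that −log10 q, 3 with a fold of at least 4 and 2 with any input removed. They were 3 with a flank of 10 kb, 3 without replicate 1 (35.0%) and 3 without replicate 2 (27.0%). For the other flank settings the share of all genes was not computed, so whether all genes fell alike cannot be told. Chd8 peaks shared with Chd7 were 12 of 30, beside 35.4% of the whole list. They were 0 of 6 at that −log10 q (1.42%) and 5 of 24 with a fold of at least 4 (27.6%). With the matching input removed they were 4 of 15 (24.9%), with any input removed 4 of 14 (25.1%) and with inputs exchanged 6 of 24 (23.1%). A reciprocal overlap of 50% gave 4 of 30 (16.6%), and a flank of 10 kb gave 7 of 18. Without Chd7 replicate 1 they were 8 of 30 (21.1%), and without replicate 2 they were 5 of 30 (22.2%). At the strict −log10 q, 2039 of the 18350 Chd8 peaks of the whole list remained, and 6 of the 30 in the windows. The causes of the moves were not tested. The exchange of inputs, which the track names in the files would imply, was chosen after the data were seen. No paired analysis was possible because these counts come from no test and the replicate numbers name libraries only.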

Other observations

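The desaturase genes stand in 1 cluster on chromosome 19. Scd1 (Chd8 fold 4.45), Scd2 (4.51) and Scd4 (3.81) had Chd8 at an end, Scd3 had none, and Scd2 was the only one of the 4 with Chd7 at an end. The Scd4 peak lies in the flank window of Scd2, and no input peak touched it, whereas the Scd2 peak touched input 3.

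By the pattern of highest end fold over the 8 lists, on the log2 scale with 0 where no peak was listed, the genes nearest to Scd2 were Gnaz (Euclidean distance 0.00835) and Tmem97 (0.0349). The nearest to Elovl7 were 2510002D24Rik (0.0708) and Pde7a (0.0723), the nearest to Gal3st1 were Trim17 and H2aw (0.0454 each), the nearest to Elovl1 were Cyp4f17 (0.000102) and Fam184a (0.000174), and the nearest to Fa2h were Gpr135 (0.0718) and Fam151b (0.123). Ugt8a, with peaks in 5 lists, had less close neighbours, Col23a1 and Phykpl (0.32 each). Elovl1 had an end peak in the Chd8 list alone, a presence shared with 1028 other genes, and that of Ugt8a was shared with 191. Distances of members with different numbers of lists are therefore not on 1 scale. Cers2 had its pattern in common with Anxa9 and LOC115489748, which share its peaks. The presence or absence over the 8 lists was the same as that of Scd2 in 407 other genes, and as that of Aspa, with no peak at an end in any list, in 8252.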
